A study of Mus musculus with 4 samples.

Results

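The complement components and regulators C3, C4b, Cfb, Cfi, Cd55, Cr1l, C1ra, C1s1 and Serping1 were described in adult mouse kidney. These 9 genes were chosen by symbol, with earlier results of these data known, from the 54232 genes of the deposited expression table. The study sequenced poly(A) RNA from kidneys collected at 60 days of age, in 2 libraries labelled heterozygous for Tshz3 (HET, genotype Tshz3+/LacZ) and 2 labelled wild type (WT). Per the labels, RNA of 3 kidneys per group was pooled in equal proportion to give the 2 preparations of each genotype. Whether the 2 pools of a genotype came from different kidneys is not said, so a p-value here reflects the spread between pools, which may be technical. The sources used here give neither strain nor sex of the mice, nor the structure of the LacZ allele. A whole kidney holds many cell types, and more cells of a type cannot be told apart from more RNA per cell.

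Complement is a set of plasma and cell-surface proteins that marks microbes and damaged cells for removal. The classical pathway starts with C1q and its proteases C1r and C1s, which cleave C4 and C2. The alternative pathway amplifies C3 cleavage with factor B, and both routes end in attack by the late components. The liver makes most plasma complement, and renal tubular, stromal and immune cells also transcribe complement genes. Cell-surface regulators such as CD55 and the rodent protein Crry, the product of Cr1l, break down the C3-cleaving enzymes on the body's own cells, and loss of control of the alternative pathway is known to damage the kidney.

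C3 and C4 are related proteins that attach to surfaces through an internal thioester. The coding bases around that site are shown because C3 and C4b are the 2 members that carry it, with capitals for the codons of the 4 residues Cys-Gly-Glu-Gln in C3 and Cys-Ala-Glu-Gln in C4b. Both are from GENCODE M21 transcripts (GRCm38, minus strand), at chr17:57215826-57215870 for C3 and chr17:34734463-34734507 for C4b.
C3: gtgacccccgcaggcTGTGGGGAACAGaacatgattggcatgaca
C4b: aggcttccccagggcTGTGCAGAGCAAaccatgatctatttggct

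C4b has a near-identical neighbour, C4a, so the stretch of 60 coding bases in which they differ most is shown with the 13 differing bases in capitals. It lies at chr17:34735430-34735489 in C4b and at chr17:34816086-34816145 in C4a (GRCm38, minus strand). One transcript of each gene was compared, and they were identical at 96.2% of 5357 aligned bases, so that a read is told apart only where it covers such a base.
C4b: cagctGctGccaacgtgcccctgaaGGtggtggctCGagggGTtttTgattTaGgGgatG
C4a: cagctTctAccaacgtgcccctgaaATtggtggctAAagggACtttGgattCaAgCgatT

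Promoter sequences of RefSeq (GRCm38.p6, 250 bases before to 50 after the annotated start) were found for 5 of the 9 genes: C3, C1ra, C1s1, Cd55 and Cr1l. Those of C3, C1ra and C1s1 are shown because these were the members higher in both libraries labelled HET than in both labelled WT. Capitals mark matches on either strand to 5 motifs: the GAS motif (TTCNNNGAA), an ISRE-like motif (GAAA, any 2 bases, GAAA), a C/EBP-like motif (TTGCNNAA), a kappaB-like motif (GGG, any 2 bases, TTTCC) and the TATA box (TATAAA). The C3 promoter lies at chr17:57228087-57228386 (minus strand), that of C1ra at chr6:124512371-124512670 (plus strand) and that of C1s1 at chr6:124542310-124542609 (minus strand, 1 of 2 annotated starts).
C3: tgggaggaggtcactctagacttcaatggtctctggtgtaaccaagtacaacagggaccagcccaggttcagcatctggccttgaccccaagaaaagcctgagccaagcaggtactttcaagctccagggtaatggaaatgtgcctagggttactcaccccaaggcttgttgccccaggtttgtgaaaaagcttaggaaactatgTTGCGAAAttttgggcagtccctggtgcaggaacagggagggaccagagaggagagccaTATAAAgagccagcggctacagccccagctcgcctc
C1ra: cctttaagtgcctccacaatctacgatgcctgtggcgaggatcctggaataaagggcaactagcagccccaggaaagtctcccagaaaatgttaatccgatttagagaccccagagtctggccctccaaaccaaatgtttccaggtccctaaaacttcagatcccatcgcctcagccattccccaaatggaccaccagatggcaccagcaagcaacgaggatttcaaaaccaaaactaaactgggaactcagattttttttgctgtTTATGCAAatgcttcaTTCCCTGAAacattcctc
C1s1: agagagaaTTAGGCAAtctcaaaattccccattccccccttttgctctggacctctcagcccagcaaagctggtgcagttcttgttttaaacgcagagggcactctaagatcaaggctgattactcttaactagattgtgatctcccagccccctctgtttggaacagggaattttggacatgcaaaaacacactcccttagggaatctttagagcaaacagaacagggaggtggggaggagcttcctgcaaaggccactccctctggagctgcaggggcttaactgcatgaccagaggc
In C3 the C/EBP-like match began 45 bases before the annotated start and the TATA box 14 bases after it. In C1ra the C/EBP-like match began 16 bases and the GAS match 32 bases after the RefSeq start. The C1ra model used for the expression values starts further upstream, at 124512405, so both matches lie within that model. In C1s1 the C/EBP-like match began 242 bases before the start. No motif matched in the Cd55 and Cr1l windows or at the other start of C1s1. Among the neighbouring copies, the window of C1rb held the same C/EBP-like and GAS letters as that of C1ra, and that of C1s2 held no match. C1rb overlapped between the labels, and C1s2 was higher in both libraries labelled HET. Of 32851 promoters of this length, 10.8% held the C/EBP-like motif, 8.30% GAS, 13.6% the TATA box, 3.44% the ISRE-like motif and 1.63% the kappaB-like motif. No 2 of the motifs overlapped in the 3 sequences shown. These are matches of letters and not known binding sites.

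Adult kidney held all 9 transcripts, at levels spread from Cfb at the top to Cfi at the bottom. Levels are given as scaled TPM, a transcript abundance corrected for gene length and depth (TPM) and then scaled between libraries. Cfb ranged from 229 to 296 scaled TPM over the 4 libraries, above 98.2% of the tested genes in each. Serping1 ranged from 58.6 to 85.2 and C3 from 19.1 to 56.2 scaled TPM. C1s1 ranged from 14.0 to 20.9 scaled TPM, overlapping the low end of C3. Cr1l (7.08 to 7.97), C1ra (4.99 to 8.48) and Cd55 (4.79 to 8.0 scaled TPM) overlapped one another in range. C4b, at 2.25 to 6.96 scaled TPM, overlapped C1ra and Cd55 and stayed under Cr1l. Cfi, at 1.34 to 4.44 scaled TPM, overlapped C4b only. No test was made between neighbours in this order. The length used for Cr1l, 10349 bases, includes the exons of long retained-intron transcripts, which lowers its TPM relative to genes with shorter models.

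**Figure D1:**
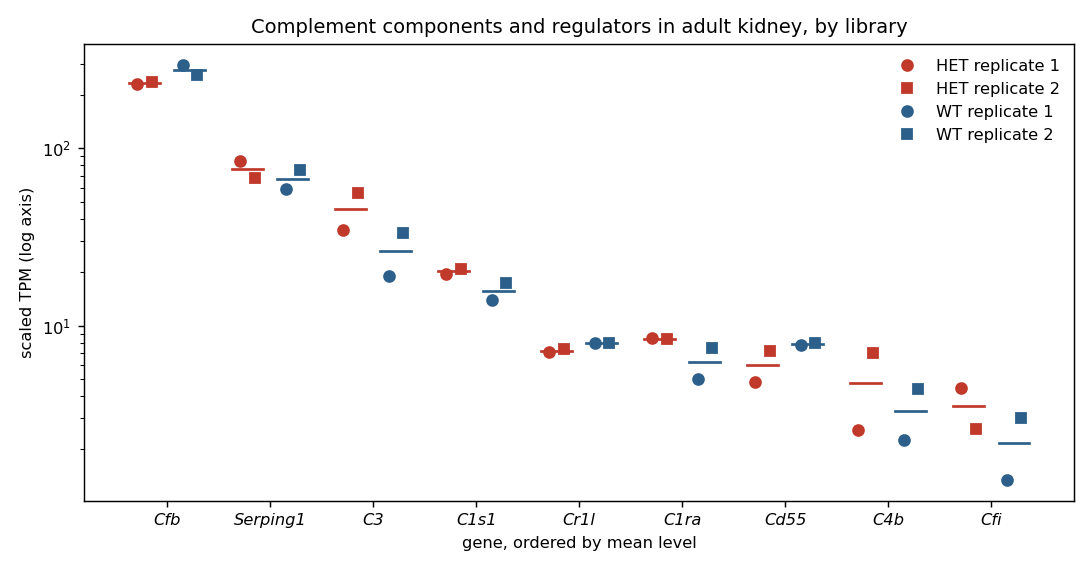
Scaled TPM (log axis) of the 9 genes, ordered by mean level, in HET replicates 1 and 2 (red circle and square, left) and WT replicates 1 and 2 (blue circle and square, right), with a bar at each mean of 2 libraries. C3, C1ra and C1s1 lie higher in both libraries labelled HET, Cfb, Cd55 and Cr1l lower (all 3 overlap without scaling), and C4b, Cfi and Serping1 overlap.

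Tshz3, the targeted gene (a zinc-finger transcription factor), was at 0.833 and 0.760 scaled TPM in the libraries labelled HET and at 0.653 and 0.723 in those labelled WT, a log2 difference of 0.13 ± 0.17 (SE) at a limma adjusted p of 0.790. It was thus not lower under the HET label, so every direction given here rests on the labels alone. Kidney-defining genes were abundant in every library, with the uromodulin gene Umod of the thick ascending limb at 2730 and 2001 scaled TPM under HET and 1858 and 2127 under WT. Reads per library numbered between 62631750 and 70792042. The comparison was fitted with limma on log2(scaled TPM + 0.5), which understates changes of low genes, over 22356 genes. The threshold for a call was 0.1 on the p adjusted by Benjamini-Hochberg over all these genes, and 2 genes (0.00895%) passed. None of the 9 complement genes was called, and the smallest adjusted p among them was 0.622 (limma). The authors' deposited table of 97 genes holds none of them. At an unadjusted p below 0.05 there were 851 higher (3.81%) and 773 lower genes (3.46%), together 7.26% of all tested, and 1 of the 9, C1s1, was among the higher ones. With 2 libraries a group, the smallest two-sided p of an exact permutation test is 0.333.

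C3, the central component on which all pathways converge (ENSMUSG00000024164, chromosome 17, 57203970 to 57228136, mm10), had the largest fold change of the 9 in the fit of all 4 libraries. It was at 34.5 and 56.2 scaled TPM in the libraries labelled HET and at 19.1 and 33.5 in those labelled WT, on 5349, 10112, 2862 and 5542 reads. Both libraries labelled HET were above both labelled WT, but HET replicate 1 exceeded WT replicate 2 only slightly, and each genotype spanned a wide range. The mean was 45.4 ± 15.3 scaled TPM under HET and 26.3 ± 10.2 under WT (SD, n = 2), 1.73 times as high, with a log2 fold change of 0.79 ± 0.36 (SE, 95% interval -0.16 to 1.73; limma: adjusted p = 0.622). Without WT replicate 1 the log2 fold change of C3 was 0.39, and without HET replicate 2 it was 0.44.

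Cfb encodes factor B, the protease subunit of the alternative C3 convertase (ENSMUSG00000090231, chromosome 17, 34856374 to 34862518). It was at 229 and 238 scaled TPM in the libraries labelled HET and at 296 and 259 in those labelled WT. Both libraries labelled HET were lower, with a log2 fold change of -0.24 ± 0.17 (SE, 95% interval -0.66 to 0.17; limma: adjusted p = 0.644), which was 0.011 without scaling of the TPM. The unlike course of C3 and Cfb gave a ratio of C3 to Cfb of 0.151 and 0.236 under HET and 0.0644 and 0.129 under WT. This ratio within a library does not depend on the scaling between libraries.

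The other alternative pathway genes varied like C3 rather than like Cfb in which library was highest. Cfd, which encodes factor D (adipsin), the protease that cleaves factor B and a product of fat cells, was at 188 and 398 scaled TPM under HET and 144 and 200.9 under WT, so the groups overlapped. Cfp, the gene of the stabilising protein properdin, was at 4.65 and 8.54 scaled TPM under HET and 3.32 and 4.33 under WT, with no overlap. Neither passed the test (limma adjusted p = 0.627 for Cfd and 0.622 for Cfp). Markers of perirenal fat varied alongside Cfd: Adipoq, the adiponectin gene, was at 26.0 and 62.7 scaled TPM under HET and 22.6 and 40.8 under WT. The fat list as a whole (Adipoq, Plin1, Ucp1 and Cidec) summed to 68.1 and 140 scaled TPM under HET and 67.1 and 123 under WT, and 3 of its 4 genes had a positive log2 fold change. The brown-fat gene Ucp1 went the other way, at 11.1 and 8.70 scaled TPM under HET and 17.7 and 34.7 under WT. C4b had the same order of libraries as Adipoq, with HET replicate 2 first, then WT replicate 2, HET replicate 1 and WT replicate 1. This order was not particular to fat, as the fibroblast genes Col3a1 and Dcn and the B cell gene Cd79b had it too. The part of fat in the levels of Cfd, C3 and C4b was not tested.

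C1ra and C1s1 encode the 2 proteases of the C1 complex and lie next to each other on chromosome 6 (C1ra, ENSMUSG00000055172, 124512405 to 124523443, and C1s1, ENSMUSG00000038521, 124530345 to 124542359). C1ra was at 8.48 and 8.41 scaled TPM in the libraries labelled HET and at 4.99 and 7.45 in those labelled WT. The libraries labelled HET were nearly equal and both higher, while those labelled WT were apart. The log2 fold change was 0.44 ± 0.20 (SE, 95% interval -0.046 to 0.92; limma: adjusted p = 0.622), and 0.17 without WT replicate 1. C1s1 was at 19.6 and 20.9 scaled TPM under HET and 14.0 and 17.3 under WT, again with no overlap. Its log2 fold change was 0.37 ± 0.15 (SE, 95% interval 0.012 to 0.73; limma: adjusted p = 0.622), and 0.22 without WT replicate 1. C1s1 stood at 2.31 and 2.49 times C1ra under HET and 2.80 and 2.32 times under WT, so the ratio of both proteases overlapped between the labels.

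The neighbouring copies of these genes had lower levels. C1rb was at 1.23 and 1.26 scaled TPM under HET and 0.635 and 1.56 under WT, and C1s2 at 2.13 and 1.98 under HET and 1.35 and 1.52 under WT. A transcript of C1ra and one of C1rb were identical at 98.0% of aligned bases, and C1s1 and C1s2 at 95.9%. Of all 50-base windows in the C1ra transcripts, 50.8% also occur in another gene, mainly C1rb, and 35.9% of 100-base windows do. As the file headers mark the alignments as unique, such reads would be missing from both genes, and the sources used here do not state the read length. Gm16567, annotated on the opposite strand, lies with all of its 576 exon bases inside C1s1 exons, and its reads numbered between 30.1% and 33.1% of those of C1s1, so that the reads of both cannot be told apart.

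**Figure D2:**
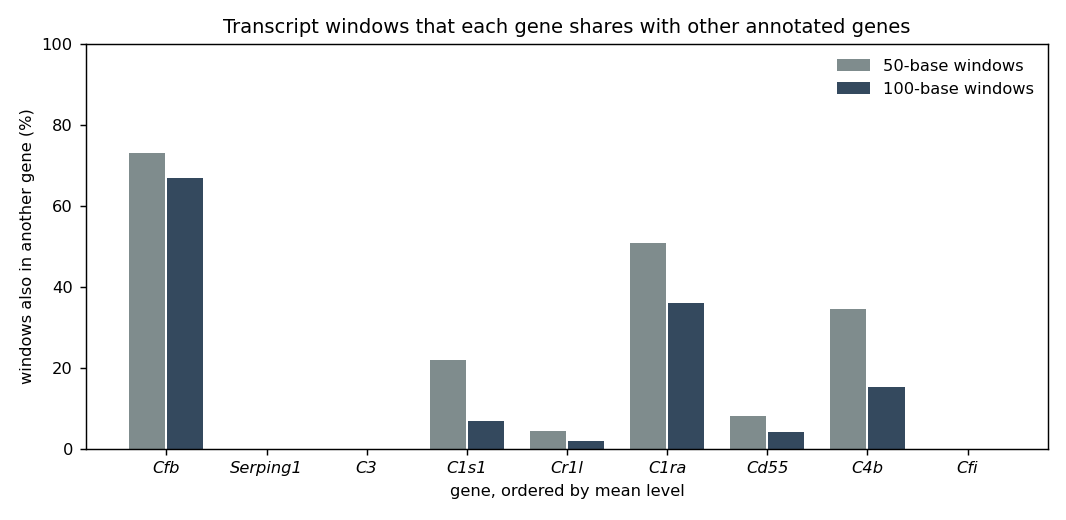
Share of all distinct 50-base (grey) and 100-base (dark) windows of each gene's annotated transcripts that occur exactly in a transcript of another gene, for the 9 genes ordered by mean level. Cfb shares most, with an overlapping read-through transcript, followed by C1ra with its copy C1rb and C4b with C4a, while C3, Cfi and Serping1 share none.

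C4b (ENSMUSG00000073418, chromosome 17, 34728380 to 34743882), the gene of the C4 that is cleaved to form the classical C3 convertase, overlapped between the labels. It was at 2.56 and 6.96 scaled TPM in the libraries labelled HET and at 2.25 and 4.36 in those labelled WT, on 440, 1387, 373 and 800 reads. HET replicate 2 was high and HET replicate 1 lay near WT replicate 1. The log2 fold change was 0.39 ± 0.54 (SE, 95% interval -1.05 to 1.83; limma: adjusted p = 0.797), and it was -0.25 without HET replicate 2 and -0.025 without WT replicate 1. C4a, known in mice as sex-limited protein for its androgen dependence in some strains, was at 1.60 and 4.5 scaled TPM under HET and 2.12 and 3.81 under WT. HET replicate 2 was the highest library for both copies. The ratio of C4b to C4a was 1.60 and 1.55 under HET and 1.06 and 1.15 under WT, so the copies were not in a fixed ratio. The windows shared with C4a made up 34.6% of the C4b windows at 50 bases and 15.2% at 100 bases.

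C1qa, C1qb and C1qc, which macrophages are known to express, encode the 3 chains of C1q. C1qa was at 39.0 and 36.2 scaled TPM under HET and 23.4 and 28.4 under WT, C1qb at 26.5 and 25.5 under HET and 16.4 and 20.6 under WT, and C1qc at 12.8 and 13.1 under HET and 7.01 and 8.95 under WT. All 3 were higher in both libraries labelled HET, as were 21.8% of all tested genes. The log2 fold changes of the 3 C1q genes were 0.53, 0.49 and 0.67 (limma adjusted p = 0.622 for each). Of 10 macrophage and dendritic cell markers, 9 had a positive log2 fold change and 8 had both libraries labelled HET higher. Over all tested genes these shares were 51.1% and 21.8%. The 10 markers summed to 846 and 635 scaled TPM under HET and 437 and 443 under WT, and none was at 0. Lyz2, the lysozyme gene, was at 77.5 and 84.0 scaled TPM under HET and 32.3 and 45.2 under WT. The part of macrophage number in the C1q levels was not tested.

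The remaining genes of the classical and lectin pathways were mixed. C2, whose product pairs with C4b in the classical convertase, was at 31.2 and 26.0 scaled TPM under HET and 24.1 and 32.1 under WT. Masp2, the lectin pathway protease gene, was at 9.45 and 13.1 scaled TPM under HET and 8.38 and 7.63 under WT, with 54.9% of its exon bases also exons of Tardbp on the other strand. Masp1, a related protease gene named after its values were seen, was at 1.22 and 0.939 scaled TPM under HET and 0.638 and 0.777 under WT. The mannose-binding lectin genes were lower in both libraries labelled HET on scaled TPM only, Mbl2 marginally so in HET replicate 1, and both overlapped on unscaled TPM. Mbl1 was at 5.52 and 6.59 scaled TPM under HET and 7.56 and 7.16 under WT, and Mbl2 at 1.18 and 0.883 under HET and 1.18 and 2.12 under WT. Fcna, a ficolin gene, was at 0.773 and 5.22 scaled TPM under HET and 1.17 and 2.06 under WT, and Colec11, a collectin gene, at 1.60 and 2.59 under HET and 2.66 and 1.99 under WT. Of the 16 tested genes of recognition and its proteases, 12 had a positive log2 fold change, 8 had both libraries labelled HET higher and 2 lower, beside 21.8% and 23.1% of all tested genes, and 0 were called. At an unadjusted p below 0.05 there were 5, all higher (C1qa, C1qb, C1qc, C1s1 and Masp2), beside 3.81% higher among all tested genes.

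Cfb and C2 lie side by side, and an annotated read-through gene, Gm20547, spans both. Of its 3902 exon bases, 2246 are also exons of Cfb and 1656 exons of C2, and 0 are its own. Its reads equalled between 90.8% and 92.3% of the summed reads of Cfb and C2. The reads of the shared exons were thus counted for more than 1 gene, and 79.5% of Cfb's exon bases are of this kind.

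Serping1 encodes the C1 inhibitor, which inactivates C1r and C1s (ENSMUSG00000023224, chromosome 2, 84765387 to 84775444). It was at 85.2 and 67.7 scaled TPM in the libraries labelled HET and at 58.6 and 75.1 in those labelled WT. The groups overlapped, with WT replicate 2 above HET replicate 2. The log2 fold change was 0.19 ± 0.19 (SE, 95% interval -0.27 to 0.66; limma: adjusted p = 0.715), and 0.017 without WT replicate 1.

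Cfi encodes factor I, the protease that cleaves C3b and C4b (ENSMUSG00000058952, chromosome 3, 129835884 to 129875332). It was at 4.44 and 2.61 scaled TPM in the libraries labelled HET and at 1.34 and 3.00 in those labelled WT, on only 87 to 297 reads a library. HET replicate 1 was high and WT replicate 1 low, with the others close together. The log2 fold change was 0.63 ± 0.38 (SE, 95% interval -0.33 to 1.59; limma: adjusted p = 0.628), and 0.17 without WT replicate 1 and 0.29 without HET replicate 1.

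Among the other fluid-phase regulators, Clu was at a higher level than Cfi. Clu, the clusterin gene, which is known to increase in injured tubules, was at 185 scaled TPM in HET replicate 1 and 60.0 in HET replicate 2, and at 72.9 and 72.9 under WT. The injury marker gene Havcr1 was likewise highest in HET replicate 1, at 58.2 and 24.1 scaled TPM under HET and 17.1 and 22.8 under WT. The log2 fold change of Clu was 1.33 without HET replicate 2 and -0.28 without HET replicate 1. With HET replicate 1 as the lone HET library the limma adjusted p was 0.0846, under the threshold, with the spread taken from the WT libraries and from other genes. Cpn1, a carboxypeptidase N gene, whose enzyme trims the anaphylatoxins, was at 5.56 and 2.67 scaled TPM under HET and 2.43 and 2.65 under WT. Of the 8 fluid-phase regulators tested, 7 had a positive log2 fold change, 3 had both libraries labelled HET higher (21.8% of all tested genes had), and 0 were called or had an unadjusted p below 0.05.

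Cd55 and Cr1l, which protect cells by dismantling the C3 convertases, were lower in both libraries labelled HET than in both labelled WT on scaled TPM, and overlapped on unscaled TPM. Cd55 (decay-accelerating factor; ENSMUSG00000026399, chromosome 1, 130439027 to 130462744) was at 4.79 and 7.20 scaled TPM under HET and 7.79 and 8.0 under WT. HET replicate 1 was the low library, and HET replicate 2 lay just under the WT level. The log2 fold change was -0.39 ± 0.20 (SE, 95% interval -0.88 to 0.095; limma: adjusted p = 0.622), and -0.12 without HET replicate 1. On unscaled TPM Cd55 was at 5.08 and 8.12 under HET and 6.69 and 7.80 under WT, with a log2 fold change of -0.16. Cr1l (ENSMUSG00000016481, chromosome 1, 195097382 to 195131586) was at 7.08 and 7.37 scaled TPM under HET and 7.96 and 7.97 under WT. On scaled TPM it varied least of the 9 genes over the libraries, and its log2 fold change of -0.13 ± 0.13 (SE, 95% interval -0.45 to 0.19; limma: adjusted p = 0.718) became 0.11 without scaling of the TPM.

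The other membrane regulators did not share a direction. Cd59a, which encodes a blocker of the membrane attack complex, was at 46.0 and 34.1 scaled TPM under HET and 48.0 and 49.2 under WT, and Cd59b at 2.76 and 1.96 under HET and 1.87 and 3.59 under WT. Cd46, a cofactor gene for factor I that in mice is mainly expressed in testis, was at 1.96 and 2.29 scaled TPM under HET and 1.54 and 1.48 under WT. Cd55b, the copy of Cd55, had 4 to 9 reads per library and was not tested. Of the 5 membrane regulators tested, 1 had a positive and 4 a negative log2 fold change, 3 had both libraries labelled HET lower (23.1% of all tested genes had, and none of the 5 on unscaled TPM), and 0 were called or had an unadjusted p below 0.05.

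Terminal pathway genes were of unequal level. C7 was at 13.2 and 12.7 scaled TPM in the libraries labelled HET and at 7.55 and 9.65 in those labelled WT (log2 fold change 0.58 ± 0.16, SE). C6, named after its values were seen, was at 1.19 and 0.667 scaled TPM under HET and 0.280 and 0.323 under WT (0.81 ± 0.22, SE). Both encode early subunits of the membrane attack complex, neither overlapped between the labels, and neither was called (limma adjusted p = 0.622 for both). C8a was at 31.1 and 28.7 scaled TPM under HET and 30.1 and 29.8 under WT, and C8g at 12.6 and 14.0 under HET and 18.2 and 13.8 under WT. At very low levels, outside the naming rule, C8b, which encodes the chain that pairs with the C8a product, had 3 and 4 reads under HET and 0 under WT, C9 had 1 to 11 reads per library, and the C5 gene Hc had 0 to 17. The transcripts of the attack complex were thus unevenly represented in this tissue.

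Receptor genes were low. Itgb2, the beta chain of the complement receptors on leukocytes, was at 4.89 and 9.14 scaled TPM under HET and 3.58 and 3.86 under WT, with no overlap (log2 fold change 0.77 ± 0.28, SE; limma: adjusted p = 0.622). Itgam, which encodes an alpha chain of such a receptor, is listed under 2 overlapping identifiers, and the more abundant was at 1.09 and 1.32 scaled TPM under HET and 0.880 and 1.2 under WT. Cr2, a receptor gene of B cells named after its values were seen, was at 0.241 scaled TPM in HET replicate 1 and 1.97 in HET replicate 2, and at 0.199 and 0.172 under WT. The B cell gene Cd79b was likewise highest in HET replicate 2, at 0.997 and 7.09 scaled TPM under HET and 0.647 and 1.41 under WT. The 8 lymphocyte markers summed to 3.31 and 25.9 scaled TPM under HET and 2.97 and 4.67 under WT, and none was at 0. Of them 7 had a positive log2 fold change and 1 had both libraries labelled HET higher, beside 51.1% and 21.8% of all tested genes. The other 7 overlapped between the labels, and 0 had an unadjusted p below 0.05. Without HET replicate 1 the log2 fold change of Cr2 was 1.85 (limma adjusted p = 0.0206), which sets the high library alone against both WT libraries, with the spread taken from WT and from other genes. C3ar1, the receptor gene for the C3a fragment, also named after its values were seen, was at 1.00 and 0.797 scaled TPM under HET and 0.502 and 0.852 under WT.

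**Figure D3:**
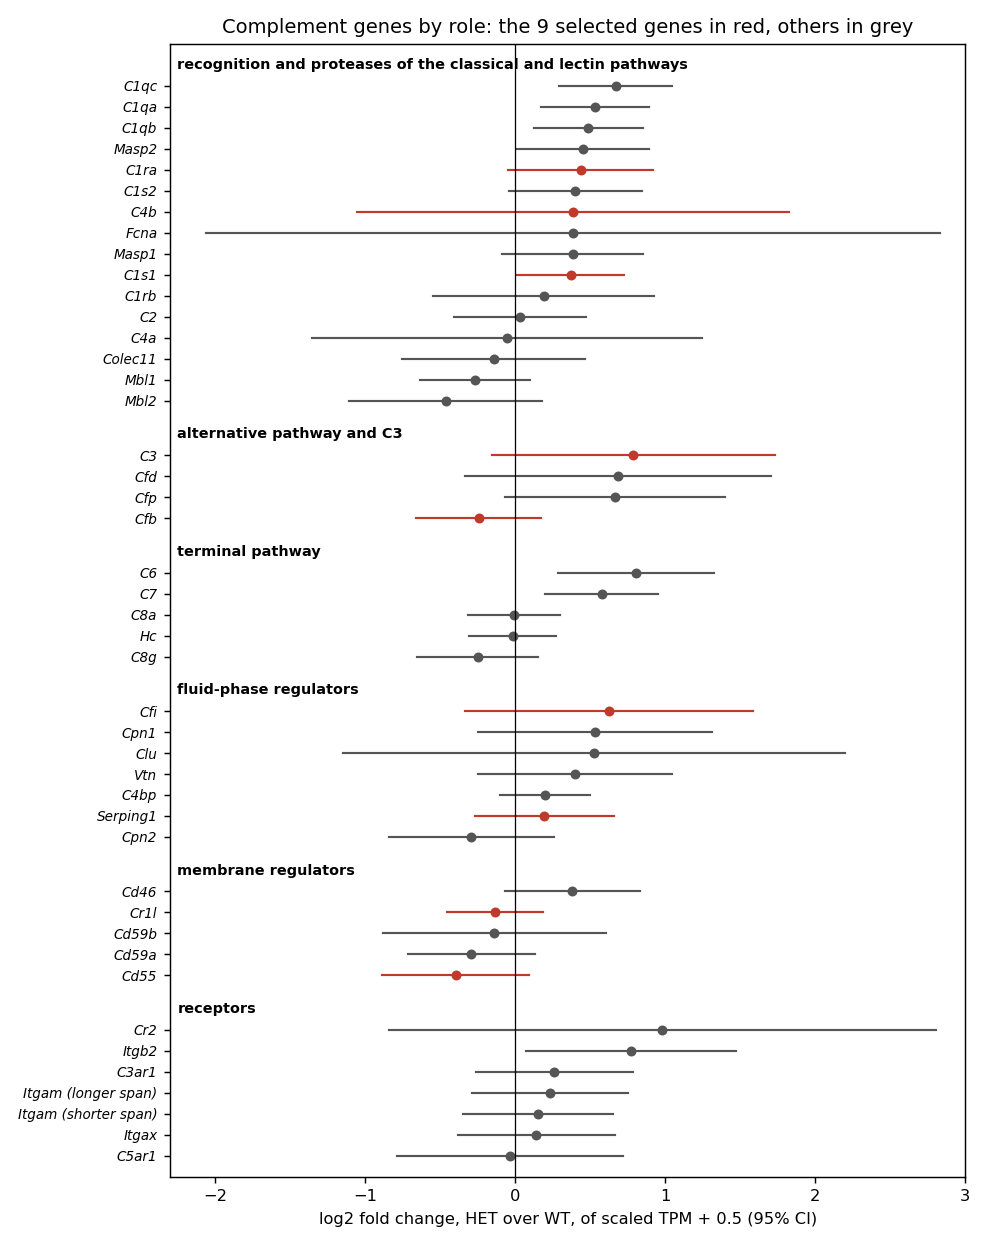
Log2 fold change of the libraries labelled HET over those labelled WT (limma, on scaled TPM + 0.5), with its 95% interval, for the tested complement rows by role, 1 of them not shown; the 9 selected genes are red and the others grey. The C1q chains, C1s1, Masp2, C6, C7 and Itgb2 lie to the right of 0 with intervals that exclude it, and most membrane regulators lie to the left with intervals that include it.

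Of the 9 genes, 6 had a positive and 3 a negative log2 fold change, beside 51.1% positive over all 22356 genes tested. Their median was 0.37, and that of all genes 0.0067. As the 9 were chosen with earlier results of these data known, their median and counts only describe them. All 9 passed the filter on low values. Both libraries labelled HET were above both labelled WT for 3 of the 9 (C3, C1ra and C1s1), where 21.8% of all tested genes were, and below for 3 (Cfb, Cd55 and Cr1l), where 23.1% were. On unscaled TPM 5 of the 9 were above and 0 below, beside 49.7% and 4.45% of all tested genes, and Cfb, Cd55 and Cr1l overlapped. In all, 6 of 9 did not overlap, beside 45.0% of all tested genes. Among the 45 tested complement rows 31 had a positive and 14 a negative log2 fold change, with a median of 0.26. Of these rows 18 had both libraries labelled HET higher and 6 lower (23 and 0 on unscaled TPM), and at an unadjusted p below 0.05 there were 8 higher (C1qa, C1qb, C1qc, C1s1, Masp2, C6, C7 and Itgb2) and 0 lower, beside 3.81% and 3.46% of all genes. By limma's adjusted p, 0 of the 45 were called.

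WT replicate 1 was the lowest library for 6 of the 9 genes, C3, C4b, Cfi, C1ra, C1s1 and Serping1, and the highest for Cfb. Without it the median log2 fold change of the 9 was 0.017, and 5 had a positive sign. Without WT replicate 2 the median was 0.52. HET replicate 1 was the lowest library for Cfb, Cd55 and Cr1l. Sex-linked transcripts differed between the same libraries: Xist was at 60.5 and 57.7 scaled TPM under HET and at 18.1 and 39.7 under WT. Ddx3y, on the Y chromosome, was at 4.02 and 17.0 scaled TPM under HET and at 21.1 and 16.2 under WT. The abundant proximal tubule gene Kap, which is androgen-regulated in mice, was at 30768 and 44555 scaled TPM under HET and at 87435 and 44594 under WT. WT replicate 1 was thus the library lowest in Xist and highest in Kap. With the level of Xist as a covariate the median of the 9 was -0.13, and 2 had a positive sign. In that fit 0 complement rows were higher and 3 lower at an unadjusted p below 0.05, beside 402 of 22356 tested genes. Without the covariate 1624 of all tested genes were at such a p. Xist was itself higher in both libraries labelled HET, so this fit cannot separate its level from the label. With the mean log2 level of 4 Y-linked genes as a covariate the median of the 9 was 0.19.

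**Figure D4:**
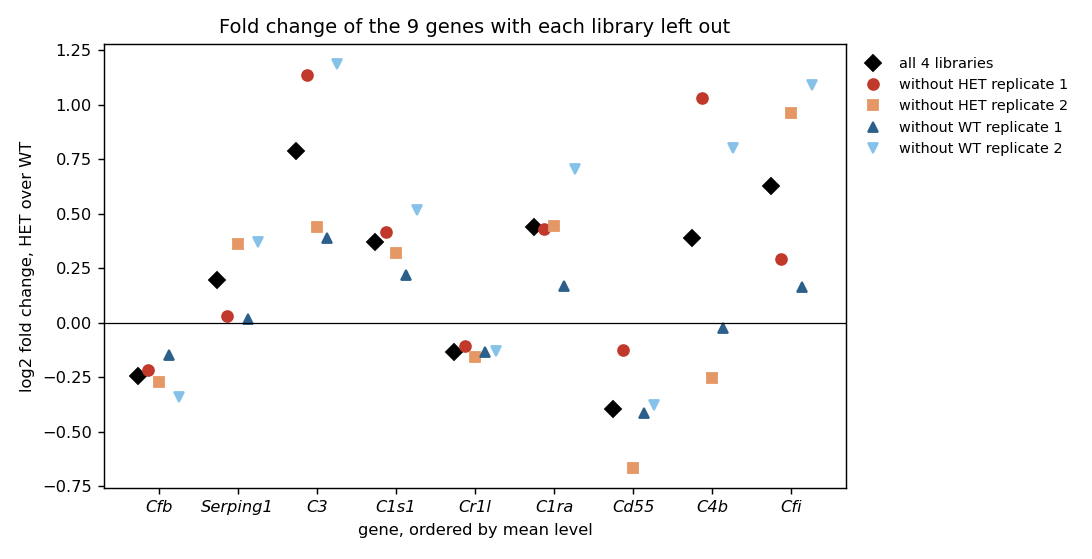
Log2 fold change (libraries labelled HET over WT) of the 9 genes with all 4 libraries (black diamonds) and with each library left out in turn (coloured symbols). Without WT replicate 1 the values of C3, C1ra, Cfi and Serping1 drop towards 0, C4b changes sign with either WT replicate 1 or HET replicate 2 left out, and Cfb, Cd55 and Cr1l stay below 0 on scaled TPM.

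Stromal and signalling genes were set beside these levels. Fibroblast markers, from cells known to express C1r, C1s and the C1 inhibitor, summed to 167 and 206 scaled TPM under HET and 117 and 182 under WT. All 7 had a positive log2 fold change, 3 with both libraries labelled HET higher, beside 51.1% and 21.8% of all tested genes. None of the 7 was at 0, and Col1a1 was at 30.1 and 33.7 scaled TPM under HET and 16.2 and 28.9 under WT. Hepatocyte markers were low, with a sum of 6.02 and 7.34 scaled TPM under HET and 5.88 and 9.44 under WT, 3 of 5 tested positive, and Tat listed at 0 in HET replicate 1. The albumin gene Alb was at 2.85 and 4.31 under HET and 3.04 and 6.58 under WT, far under the level of Cfb. Injured tubule markers summed to 2327 and 1175 scaled TPM under HET and 1010 and 1239 under WT, with 5 of 6 positive, beside 51.1% of all tested genes. Most of each sum was Spp1, at 2171 and 1077 scaled TPM under HET and 910 and 1133 under WT. The part of these cells in the levels of the 9 genes was not tested. Endothelial markers, with 3 of 4 positive, summed to 101 and 110 scaled TPM under HET and 96.6 and 113 under WT, and neutrophil markers, with 0 of 3 tested positive, to 3.45 and 6.88 under HET and 12.5 and 2.41 under WT.

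Of 11 genes of NF-kB, interleukin-1 and interleukin-6 signalling, 9 had a positive log2 fold change (median 0.26). Both libraries labelled HET were higher for 5 of the 11, and 1 had an unadjusted p below 0.05. Over all tested genes these shares were 51.1%, 21.8% and 7.26%. The inhibitor gene Nfkbia was at 61.6 and 42.2 scaled TPM under HET and 38.1 and 39.1 under WT. Il6st, Tnfrsf1a and Rela, the others of the 4 most abundant, overlapped between the labels. Their log2 fold changes were -0.10, 0.035 and -0.091, and that of Nfkbia was 0.40. None of these 11 genes was called by limma.

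**Figure D5:**
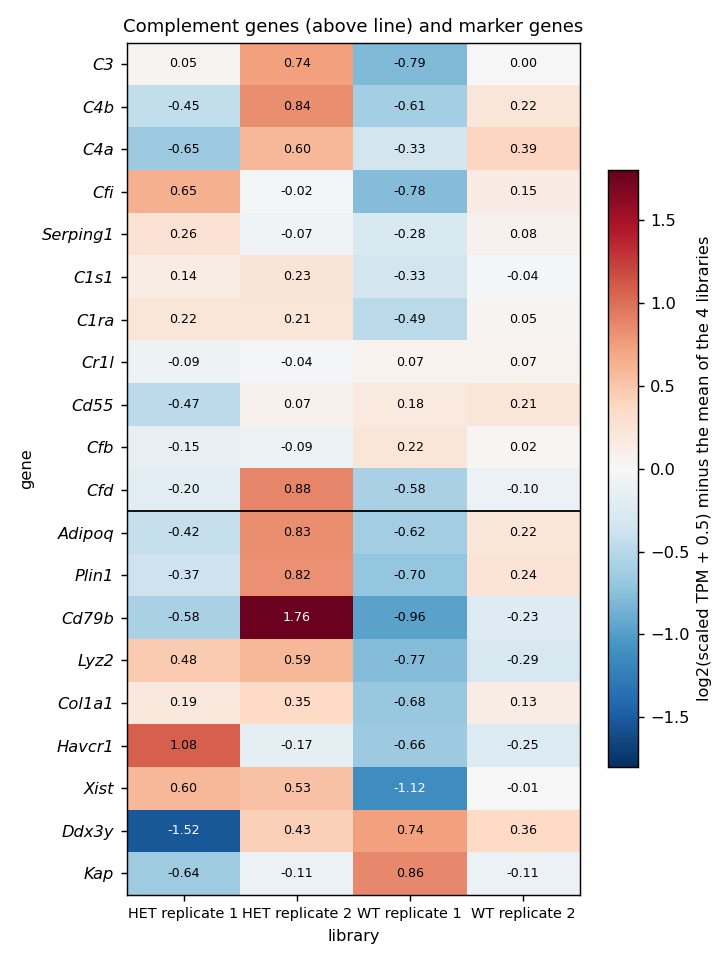
Level of complement genes (above the line) and of marker genes (below it) in each library, as log2(scaled TPM + 0.5) minus the gene's mean over the 4 libraries; columns are HET replicates 1 and 2 and WT replicates 1 and 2. C3, C4b, C4a, C1s1 and Cfd are highest in HET replicate 2, as are Adipoq, Plin1, Cd79b, Lyz2 and Col1a1. Cfi, Serping1 and C1ra are highest in HET replicate 1, as are Havcr1 and Xist. WT replicate 1 is below the mean in all rows but Cr1l, Cd55, Cfb, Ddx3y and Kap.

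The profile of the 9 genes over the libraries, averaged after centring each gene on the log2 scale, was 0.018 and 0.21 in HET replicates 1 and 2 and -0.31 and 0.085 in WT replicates 1 and 2. Among 9617 genes with a usual symbol, at least 5 scaled TPM and no place in the lists used here, the 5 nearest by Euclidean distance over the 4 libraries were Zfp869, Fndc3a, Dlc1, Lix1l and Colec12, at distances of 0.018 to 0.037. Zfp869 was at 12.8 and 14.5 scaled TPM under HET and 10.2 and 13.4 under WT. With 4 libraries many genes share such a profile. The single genes spread widely around the average, from Cfi, whose highest library was 3.31 times its lowest, to Cr1l, for which this ratio was 1.13.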

How the data were processed

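Processed values were used as deposited. The authors deposited a table of TPM for 54232 genes with the exon coordinates and summed exon length of each gene, which per the file headers came from alignments to mm10 marked unique. The authors' deposited comparison of 97 genes gives for each gene a mean normalized count (a signal value), a log2 fold change and standard error, a score (the test statistic), and p-values with and without adjustment. The genome build was mm10 per the submitters' processing notes. The sources used here do not name the aligner, read counter, library kit or strandedness.

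Multiplying TPM by exon length gave, for 100% of the values above 0, whole numbers of a unit taken to be 1 read (tolerance 0.001 reads). These reads were used for depth, filtering, scaling and limma-voom. Trimmed mean of M values (TMM) factors were 1.05 and 1.07 for HET replicates 1 and 2 and 0.901 and 0.989 for WT replicates 1 and 2. TPM were scaled by the matching multipliers, 0.944 and 0.887 for HET and 1.16 and 1.03 for WT. The test took genes that reached 10 reads (at median depth) in 2 libraries and 15 reads in all. They were tested with limma 3.58.1 (R 4.3.3, variance trend, robust moderation with statmod 1.5.0) on log2(TPM + 0.5). Values are mean ± SD over 2 libraries. The chi-square per degree of freedom between same-genotype libraries was 80.8 for HET and 77.5 for WT, so none was a copy of another.

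The 9 genes and the lists were chosen with earlier results of these data known. Named genes were the 9, copies of them at any level, other complement genes of at least 1 scaled TPM, the 4 most abundant genes of each context list, sex-linked genes and the 5 nearest profiles; a few named outside this rule are marked, and some that it covers are not reported here. The other complement list held 42 names in 43 rows, of which 36 were tested. Alternatives were other scalings, pseudocounts, filters, limma-voom, a replicate block, each library left out, and sex-linked levels as covariates. Intervals assume that the spread is shared across genes.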

Additional observations from a re-analysis of the deposited data

How the results depend on the processing

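The count of 2 called genes became 0 with no filter on low genes, with limma-voom (with 1945 and 1771 genes at an unadjusted p below 0.05) and with Xist level as a covariate (402 genes), 1 without robust moderation, 5 with a stricter filter (1 CPM in 2 libraries) and 32 with the level of Y-linked genes as a covariate. With each library left out in turn it was 0 (without WT replicate 1, with 548 genes at an unadjusted p below 0.05) to 107 (without HET replicate 2). Same-numbered HET and WT libraries deviated from their genotype means with a correlation of 0.12 across genes, and the labels do not say that numbers pair them. With the replicate number as a block 0 genes were called (1766 at an unadjusted p below 0.05), and the median log2 fold change of the 9 complement genes was 0.37 in that paired fit.
The median of 0.37 for the 9 genes was 0.61 without scaling of the TPM, where the median of all genes was 0.20. It was -0.13 with the level of Xist as a covariate, which was itself higher in both libraries labelled HET. With each library left out the median of the 9 was 0.017 to 0.52. The 3 genes higher in both libraries labelled HET became 5 without scaling of the TPM, and 3 to 6 with a library left out. Tshz3 had a positive log2 fold change, uncalled, under all 15 alternatives.
None of the 9 complement genes was called under any of the 15 alternatives. Of the 37 tested complement rows named, 20 kept their direction under every alternative in which they were tested, and the other changes of sign were these log2 fold changes. Without scaling of the TPM they were C4a 0.16, C8a 0.25, Cd59b 0.067, Cfb 0.011, Colec11 0.068 and Cr1l 0.11. With the level of Y-linked genes as a covariate they were C2 -0.14, C4a 0.44, Clu -0.23, Colec11 0.17 and Serping1 -0.0074, and Cr2 was called. With Xist level as a covariate they were C1ra -0.10, C1rb -0.68, C2 -0.40, C3ar1 -0.19, C4b -0.37, C8a 0.0038, C8g 0.15, Cfi -0.34, Colec11 0.24, Fcna -0.10, Itgam -0.14 and Serping1 -0.18. With each library left out in turn the values of the genes that changed sign ranged over -0.24 to 0.62 for C1rb, -0.17 to 0.24 for C2, -0.68 to 0.57 for C4a, -0.25 to 1.03 for C4b, -0.062 to 0.054 for C8a, -0.53 to 0.25 for Cd59b, -0.28 to 1.33 for Clu, -0.42 to 0.14 for Colec11 and -0.70 to 1.47 for Fcna. Without HET replicate 1 Cr2 was called at 1.85, and without HET replicate 2 Clu at 1.33, each with 1 HET library assumed to vary like the WT ones. The cause was not tested. The counts of complement rows by unadjusted p were recomputed under the alternatives after seeing the data: 0 to 13 were higher and 0 to 3 lower. Among the 9 genes depth limits Cfi most, with 87 reads in WT replicate 1. The counts of genes below both WT libraries on unscaled TPM were also added after seeing the data.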
